A study of Strongylocentrotus purpuratus with 191 samples.

Results

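Purple sea urchin (Strongylocentrotus purpuratus) embryos raised at 18C were compared with embryos of the same parents raised at 12C, in the crosses that the labels place in block 4. The comparison takes in 64 of the 191 cultures of the series, 32 at 18C and 32 at 12C, chosen by their block and temperature labels alone. They come from 16 crosses, made by mating each of 4 females to each of 4 males, with 2 replicate cultures per cross at each temperature. Every culture was a bulk of sibling embryos grown in artificial sea water to the middle of gastrulation, and total RNA was taken from it. No culture carried a mutation or received an agent, and the parents are known only by a letter and the block number. A cross is written with the female before the male, so D4xA4 is female D4 mated to male A4. A female and a male that share a name are different animals. The 18C cultures were sampled at times from 22.53 to 23.47 (mean 23.0), against 37.17 to 38.12 (mean 37.7) for the 12C cultures. The labels give no unit for these times. Temperature and sampling time can therefore not be told apart.

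The panel measured 74 genes of the developmental network of the embryo by Illumina DASL, a method that joins neighbouring short oligonucleotides annealed to cDNA, amplifies the product and reads it on a bead array. In a sea urchin gastrula the gut grows inward from the vegetal pole while mesenchyme cells lay down the larval skeleton and other mesoderm cells become pigment and blastocoelar cells. Nodal, a ligand made in the oral ectoderm, sets the oral side of the embryo and switches on the gene of its own antagonist, Lefty. Wnt signals acting through beta-catenin set the vegetal territories that give rise to gut and skeleton, and the Dickkopf protein Dkk antagonises Wnt signalling. Fewer cells of a type and less RNA per cell cannot be told apart in bulk embryos.

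At 18C 7 of the 74 genes differed from 12C past the threshold, which is 9.46% of the genes tested (limma, adjusted p under 0.05). The 6 genes that rose (8.11%) were brn1-2-4, Dkk, Lefty, SpColl-ColAlpha, Gelsolin and nodal, and the 1 gene that fell (1.35%) was FoxB. Each gene was read by 2 to 6 probes, and the probes of a gene did not all move alike. For each of the 7 genes the probe with the largest change and the probe with the smallest are printed here. The printed probes of brn1-2-4, of Lefty and of SpColl-ColAlpha differed in change beyond their errors, while those of Dkk and of Gelsolin gave like changes. They run 5′ to 3′ as deposited, with the exon number taken from the probe's name.

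brn1-2-4 exon 1, probe 3704: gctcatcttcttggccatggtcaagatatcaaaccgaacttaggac
brn1-2-4 exon 1, probe 4099: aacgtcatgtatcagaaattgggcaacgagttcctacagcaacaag
Dkk exon 3, probe 3440: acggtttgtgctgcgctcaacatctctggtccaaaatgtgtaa
Dkk exon 2, probe 5846: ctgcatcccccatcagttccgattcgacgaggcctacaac
Lefty exon 4, probe 3399: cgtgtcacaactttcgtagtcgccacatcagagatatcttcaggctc
Lefty exon 1, probe 1953: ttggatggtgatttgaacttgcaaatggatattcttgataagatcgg
FoxB exon 1, probe 4125: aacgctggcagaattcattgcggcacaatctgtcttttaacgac
FoxB exon 1, probe 1671: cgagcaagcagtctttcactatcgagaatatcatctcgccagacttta
SpColl-ColAlpha exon 21, probe 1931: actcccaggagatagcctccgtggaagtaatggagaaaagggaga
SpColl-ColAlpha exon 37, probe 915: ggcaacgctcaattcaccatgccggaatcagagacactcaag
Gelsolin exon 1, probe 1331: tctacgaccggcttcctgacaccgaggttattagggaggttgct
Gelsolin exon 1, probe 2320: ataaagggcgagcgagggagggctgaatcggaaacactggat
nodal exon 2, probe 5021: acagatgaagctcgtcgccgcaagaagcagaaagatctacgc
nodal exon 1, probe 5290: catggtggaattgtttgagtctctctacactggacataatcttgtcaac

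The median panel signal before normalization was 12.2 ± 0.157 at 18C and 12.2 ± 0.159 at 12C (log2, SD, n = 32 each), and 84.8% of probe values were detected above the negative controls at 18C, against 83.3% at 12C. No pair of these 64 arrays correlated above 0.875 over the normalized probe values, which are centred on 0 for each probe. Of 15 genes that mark skeletogenic, gut, oral ectoderm and pigment territories, 13 had at least 1 probe detected in most cultures. The exceptions were Alx1 and Not. Most probe values of the panel were detected, so this count does not test the labelled stage. Temperature nearly followed the rows of the plate: rows D to H held 28 of the 18C cultures and no 12C culture, row C held 4 and 8, and rows A and B held 24 of the 12C cultures and no 18C culture. The values with row in the model therefore stand beside the results, from fits to the single cultures.

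The labels give each culture a mean stage score, whose scale is not stated. The score was higher at 18C in all 16 crosses, although these cultures were sampled earlier. It averaged 0.386 ± 0.0682 in 18C embryos and 0.334 ± 0.0495 in 12C embryos (SD, n = 16 crosses each), ranging from 0.317 to 0.551 at 18C and from 0.247 to 0.433 at 12C. The rise averaged 0.0515 (SD 0.0435) and was past the spread between crosses (exact sign-flip test over the 16 crosses, two-sided p = 3.05e-05, the smallest that 65536 flips can give, and 9.16e-05 adjusted over 3 stage tests). It ran from 0.0113 in D4xB4 to 0.175 in D4xA4, and averaged 0.0432 without D4xA4. By female, the mean rise was 0.0180 in the crosses of A4, 0.0456 in those of C4, 0.0580 in those of B4 and 0.0842 in those of D4. The SD of the score between replicate cultures was 0.0516, larger than the SD of the rise over crosses. Differences in rise between crosses are therefore not resolved from replicate spread, and those between females were not tested. The crosses of female D4 had the highest mean score at both temperatures, 0.487 at 18C and 0.403 at 12C. The spread of stage inside a culture was the same size at both temperatures, with a mean SD of 0.0841 at 18C and 0.0849 at 12C (n = 32 cultures each).

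**Figure D1:**
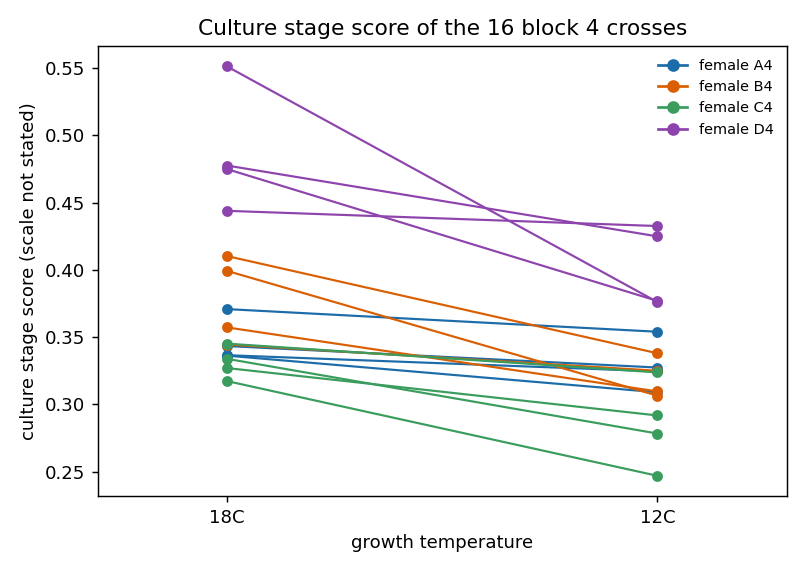
Mean culture stage score (scale not stated) of the 16 block 4 crosses at 18C (left) and 12C (right), with a line for each cross coloured by its female parent. All 16 lines are higher at 18C, and the line of D4xA4 has the largest difference, 0.175.

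brn1-2-4 encodes a POU-domain transcription factor of the embryonic gut, and it was the 1 gene of the panel that moved the same way in all 16 crosses. Levels here are the authors' log2 values, centred on 0 for each probe across the plate, so they compare cultures and not genes. The brn1-2-4 level ran from -0.33 through a median of 0.15 to 0.56 at 18C, and from -0.44 through -0.31 to 0.11 at 12C. The groups overlapped, but 8 of the 18C crosses lay above every 12C cross and 7 of the 12C crosses below every 18C cross. The change was 0.39 ± 0.05 (log2, SE, 16 crosses; 95% confidence interval 0.28 to 0.50), a ratio of 1.31, with a limma adjusted p of 4.10e-05. It was 0.00 in B4xB4 and reached 0.83 in C4xA4. All 6 probes moved up, by 0.25 to 0.81, and the brightest alone gave 0.31 ± 0.12 and did not pass the test (adjusted p = 0.114). The largest change, 0.81 ± 0.17, was that of probe 3704, which was detected in 71.9% of cultures, and the next largest was 0.33 ± 0.06. The brn1-2-4 change was 0.23 ± 0.16 with plate row as a block (adjusted p = 0.942) and 0.05 ± 0.16 within row C (adjusted p = 0.975).

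Gelsolin, an actin-severing protein whose gene is active in the differentiating gut, rose in 13 of 16 crosses. Its level ran from -0.57 through 0.06 to 0.74 at 18C, and from -1.06 through -0.13 to 0.25 at 12C. The groups overlapped widely, with 5 of the 18C crosses above every 12C cross. The largest gain, 1.21, was in A4xC4, the cross with the lowest level at 12C. The mean change was 0.35 ± 0.09 (SE; adjusted p = 0.0147), and its 2 probes gave 0.39 and 0.30. Gelsolin changed, with row as a block, by 0.43 ± 0.30 (adjusted p = 0.942), and within row C by 0.22 ± 0.34.

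The other gut differentiation genes did not pass the test. Endo16, a secreted glycoprotein of the midgut, changed by 0.04 ± 0.05 (adjusted p = 0.656), and APOBEC, a cytidine deaminase family gene, by 0.06 ± 0.05 (adjusted p = 0.446). Of the 9 endoderm transcription factors, 1 rose (brn1-2-4), none fell and the median change was 0.03, beside 0.01 over all 74 genes. The nearest of the rest was Eve, a homeobox gene of the posterior endoderm, at 0.12 ± 0.04 (adjusted p = 0.107).

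**Figure D2:**
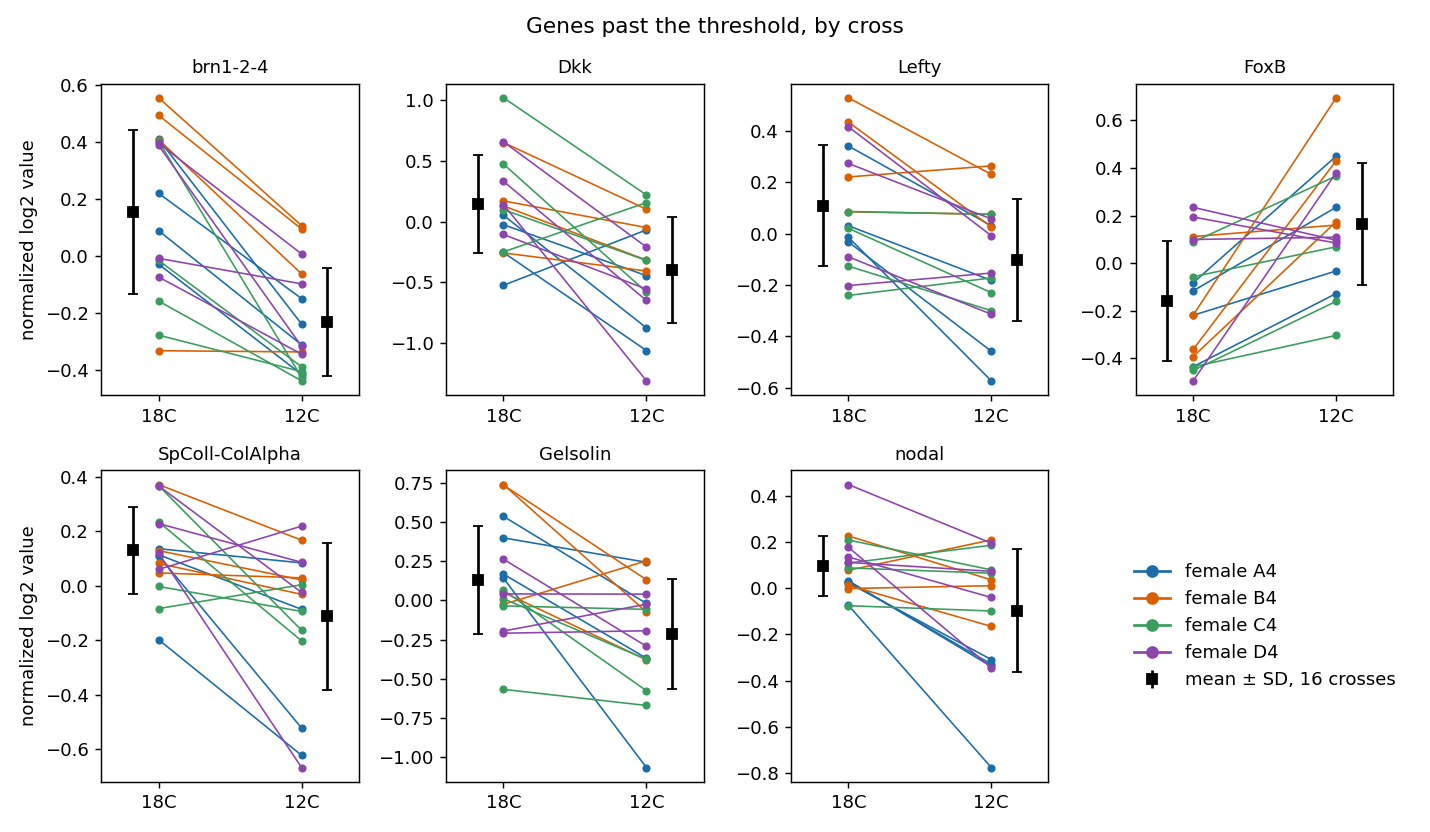
Normalized log2 level of the 7 genes past the threshold in each of the 16 crosses at 18C (left in each panel) and 12C (right), with the mean and SD. Every brn1-2-4 line is higher at 18C, while 14 of 16 FoxB lines are lower.

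In the oral signalling system, the ligand nodal and its antagonist Lefty both rose. The nodal level ran from -0.08 through 0.08 to 0.45 at 18C, and from -0.78 through -0.01 to 0.21 at 12C. The overlap was broad at the upper end, and the difference lay mainly in low 12C crosses, 7 of which were below every 18C cross. nodal changed by 0.19 ± 0.05 (SE; adjusted p = 0.0218) and was higher in 13 of 16 crosses. Its 5 probes all moved up, by 0.12 to 0.28. Within row C the nodal change was 0.24 ± 0.13 (adjusted p = 0.800), and with row as a block 0.15 ± 0.14 (adjusted p = 0.942).

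Lefty ran from -0.24 through 0.06 to 0.53 at 18C, and from -0.57 through -0.08 to 0.26 at 12C. It was higher at 18C in 13 of 16 crosses, with lower values in C4xD4, D4xA4 and B4xB4, each by less than 0.1. The change was 0.21 ± 0.05 (SE; adjusted p = 0.00724). The 5 Lefty probes disagreed. The exon 4 probe 3399 printed above changed by 0.47 ± 0.09, while the exon 1 probe 1953, the brightest of the gene, changed by -0.02 ± 0.05. The other exon 4 probe changed by 0.02 ± 0.04, so the split did not follow the exons. Lefty changed, with row as a block, by 0.06 ± 0.15 (adjusted p = 0.942), and within row C by 0.09 ± 0.13.

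All 4 genes of the Nodal and BMP list had changes above 0, with a median of 0.15. BMP2-4, the BMP ligand that signals to the aboral side, changed by 0.11 ± 0.05 (adjusted p = 0.195), and Chordin, its extracellular antagonist, by 0.01 ± 0.04 (adjusted p = 0.907). Of the 5 oral ectoderm transcription factors none was called, 4 had changes below 0 and the median was -0.02. Among them, the repressor gene gsc changed by 0.09 ± 0.05 (adjusted p = 0.298). Not changed by -0.06 ± 0.03 (adjusted p = 0.195), with a signal that was not above the negative controls at either temperature. None of the 7 aboral ectoderm and ciliary band genes was called, and the largest change there was that of the LIM-homeobox gene Lhx2, at 0.17 ± 0.09 (adjusted p = 0.298).

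Among the 6 Wnt pathway genes, Dkk rose. Its level ran from -0.52 through 0.11 to 1.02 at 18C, and from -1.31 through -0.36 to 0.22 at 12C. It was higher at 18C in 14 of 16 crosses, and the exceptions, A4xB4 and C4xB4, shared male B4 and were lower by 0.45 and 0.40. The change was 0.54 ± 0.12 (SE; interval 0.30 to 0.78; adjusted p = 0.00609). Dkk was a dim gene, and neither of its probes was detected in most cultures, so it drops out when undetected probes are left out. Its mean signal lay 1.87 log2 units above the negative controls at 18C and 1.28 at 12C, and its SD between replicate cultures was 0.564, against a median of 0.188 over genes. Its exon 3 probe was detected in 68.8% of cultures at 18C and 31.2% at 12C, and its exon 2 probe in 37.5% at 18C and 12.5% at 12C. The Dkk change was, with row as a block, 0.51 ± 0.38 (adjusted p = 0.942), and within row C 0.65 ± 0.29 (adjusted p = 0.679).

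None of the other Wnt genes was called. Wnt8, the ligand, changed by 0.16 ± 0.06 (adjusted p = 0.107) and B-catenin, the transducer, by 0.10 ± 0.04 (adjusted p = 0.148). Wnt8 passed the threshold from its detected probes alone (0.24 ± 0.07, adjusted p = 0.0238), with the median of its probes (adjusted p = 0.0231) and with both blocks in the fit (adjusted p = 0.0208). Changes of 5 of the 6 Wnt genes were above 0, with a median of 0.08. In the Delta-Notch list of 3 genes none was called, and Su(H), the transcription factor that Notch acts through, changed by -0.10 ± 0.04 (adjusted p = 0.176).

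FoxB, a forkhead transcription factor gene of skeletogenic mesenchyme and endoderm, fell at 18C. Its level ran from -0.49 through -0.17 to 0.23 at 18C, and from -0.30 through 0.13 to 0.70 at 12C. The groups overlapped, with 6 of the 18C crosses below every 12C cross and 6 of the 12C crosses above every 18C cross. FoxB was lower at 18C in 14 of 16 crosses, and the exceptions were D4xC4 and D4xD4, both of female D4. D4xA4, of the same female, changed by -0.87, and FoxB did not differ between dams past the threshold (limma moderated F test, adjusted p = 0.669). The change was -0.32 ± 0.08 (SE; interval -0.48 to -0.16; adjusted p = 0.00915), a ratio of 0.800. All 6 probes moved down, by -0.50 to -0.21. With row as a block FoxB changed by -0.23 ± 0.19 (adjusted p = 0.942), and within row C by -0.10 ± 0.15.

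The other 12 skeletogenic transcription factors did not pass the test, and the median of the list was 0.01. FoxO changed by 0.13 ± 0.05 (adjusted p = 0.107), and the ETS-family genes had changes of both signs, with Tel at 0.19 ± 0.09 (adjusted p = 0.195), Ets1 at 0.07 ± 0.04 (adjusted p = 0.277) and Erg at -0.12 ± 0.08 (adjusted p = 0.334). From detected probes alone, which for Ets1 is 1 of 5, Ets1 changed by 0.17 ± 0.05 (adjusted p = 0.0454). deadringer, an ARID-domain factor, changed by -0.00 ± 0.03 (adjusted p = 0.943). Its level ran from -0.37 to 0.18 at 18C and from -0.29 to 0.14 at 12C, and it was higher at 18C in 8 of the 16 crosses.

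SpColl-ColAlpha, a fibrillar collagen chain made by mesenchyme, was the 1 gene called among 15 skeleton and matrix effectors. Its level ran from -0.20 through 0.12 to 0.37 at 18C, and from -0.67 through -0.03 to 0.22 at 12C. The groups overlapped, with 5 of the 18C crosses above every 12C cross, and the gene was higher at 18C in 14 of 16 crosses. The change was 0.24 ± 0.06 (SE; adjusted p = 0.0147). The dimmest of its 4 probes, probe 1931 of exon 21, changed by 0.62 ± 0.19, while the brightest, probe 915 of exon 37, changed by 0.00 ± 0.02. With row as a block SpColl-ColAlpha changed by 0.04 ± 0.19 (adjusted p = 0.942), and within row C by 0.10 ± 0.17.

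The other effectors lay on both sides of 0, with 8 of the 15 below it and a list median of -0.01. C-lectin, a spicule matrix lectin, changed by -0.20 ± 0.07 (adjusted p = 0.107). SM32, another spicule matrix protein, changed by 0.16 ± 0.07 (adjusted p = 0.176). VEGF-3, the ectodermal growth factor that guides skeletogenic cells, changed by -0.15 ± 0.07 (adjusted p = 0.195), and by -0.23 ± 0.07 from its detected probes alone (adjusted p = 0.0238). Of 4 pigment cell and non-skeletogenic mesoderm genes none was called: Mitf changed by 0.10 ± 0.04 (adjusted p = 0.0961), gcm, the pigment cell specifier, by 0.10 ± 0.05 (adjusted p = 0.195) and gataC by -0.09 ± 0.04 (adjusted p = 0.195). None of the 5 remaining genes was called, and the nearest was SoxC, at -0.05 ± 0.03 (adjusted p = 0.277). C-lectin, B-catenin, Tel, Not, gcm, APOBEC and Endo16 changed sign both with row as a block and within row C, and FoxO and VEGF-3 did so within row C, so the signs given for these genes hold without row in the model.

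**Figure D3:**
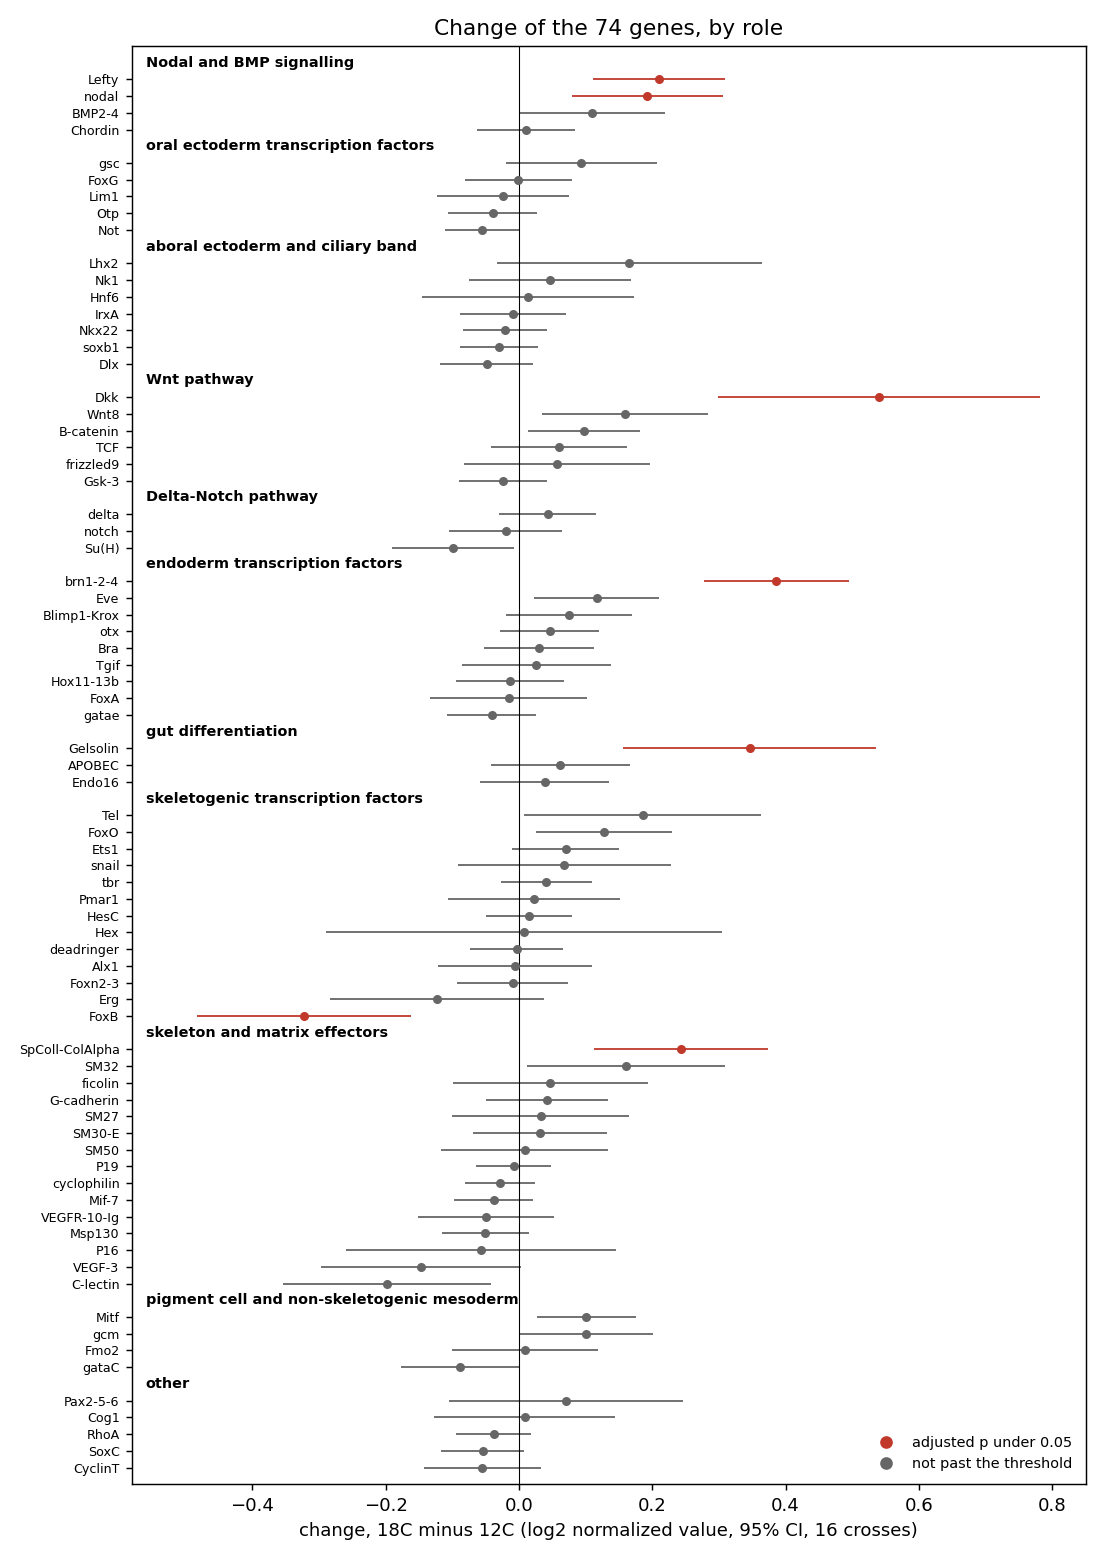
Change at 18C relative to 12C (log2, with its 95% interval, 16 crosses) for all 74 genes, grouped by role. The 7 genes past the threshold are marked, and the list medians lie between -0.04 and 0.15.

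Over the whole panel 43 changes were above 0 and 31 below, with a median of 0.01, and an unadjusted p under 0.05 was reached by 18 genes. With plate row as a block none of the 74 genes was called (limma, 3 at an unadjusted p under 0.05). The standard errors of the 7 genes ran from 0.14 to 0.38 there, against 0.05 to 0.12 in the main fit to cross means. With row as a random block 16 genes were called, including all 7. Within row C, with 4 cultures at 18C and 8 at 12C that share 1 cross, none was called either (5 at an unadjusted p under 0.05). The 7 genes kept their direction with row as a fixed block and within row C, with adjusted p from 0.679 to 0.975. Temperature and plate row are nearly the same split here, and they cannot be told apart.

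**Figure D4:**
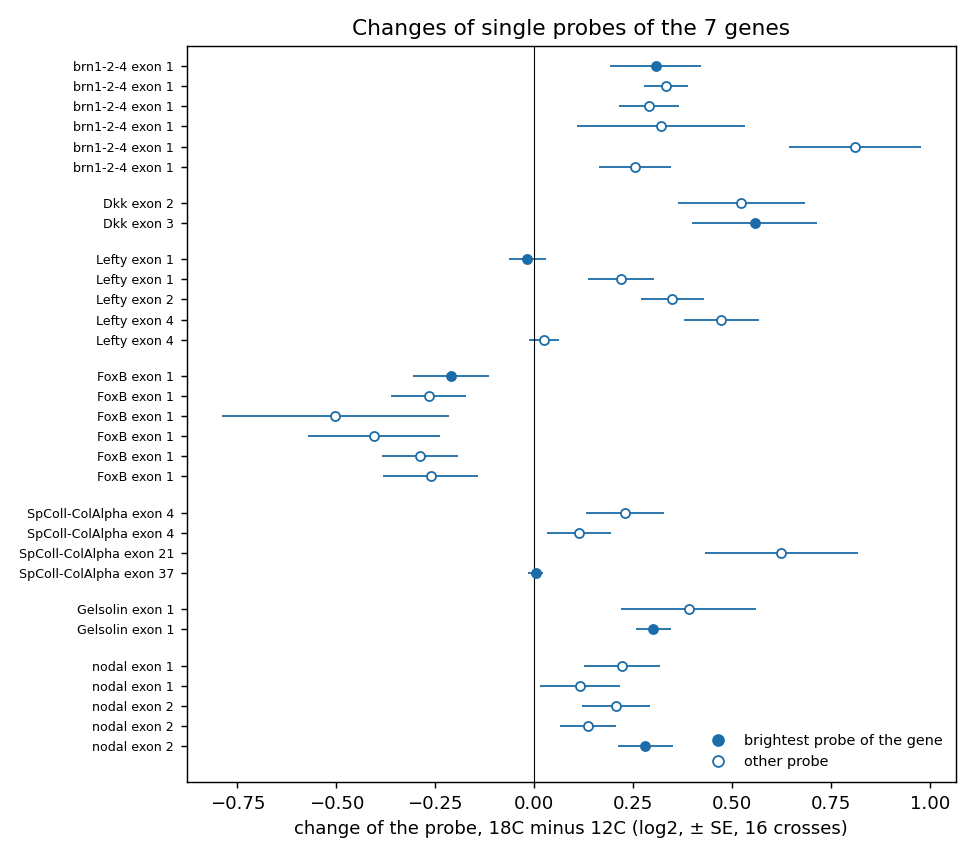
Change at 18C relative to 12C (log2, SE, 16 crosses) of every probe of the 7 called genes, listed by gene and exon. The brightest probe of each gene is filled. The brightest Lefty and SpColl-ColAlpha probes lie at -0.02 and 0.00, while all 6 brn1-2-4 probes lie above 0.

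The changes were next set beside the rise in stage score across the 16 crosses. For no gene did the change vary with the rise past the threshold (0% called, 0 genes at an unadjusted p under 0.05, smallest limma adjusted p = 0.983). The slope per 0.05 units of stage was 0.01 ± 0.06 for brn1-2-4, 0.15 ± 0.14 for Dkk, 0.10 ± 0.07 for SpColl-ColAlpha, -0.08 ± 0.05 for Lefty, -0.07 ± 0.06 for nodal, -0.08 ± 0.11 for Gelsolin and -0.07 ± 0.09 for FoxB. The standard errors were from 0.05 to 0.14, and slopes of this size were not resolved. The stage score differed between replicate cultures by an SD of 0.0516, more than the SD of the rise over crosses, 0.0435. The rise of a single cross is thus poorly known, and this fit cannot decide whether the changes follow it.

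The same fit gives the change at no rise in stage, which carries the same limit. It passed the threshold for 2 genes (2.7% of those tested, 9 at an unadjusted p under 0.05). brn1-2-4 gave 0.38 ± 0.08 (adjusted p = 0.0241) and Lefty 0.30 ± 0.07 (adjusted p = 0.0263). The other 5 genes kept their sign but had wider errors, with nodal at 0.26 ± 0.09 (adjusted p = 0.168), Gelsolin at 0.42 ± 0.15 (adjusted p = 0.168), Dkk at 0.39 ± 0.18 (adjusted p = 0.378), FoxB at -0.25 ± 0.12 (adjusted p = 0.387) and SpColl-ColAlpha at 0.14 ± 0.10 (adjusted p = 0.561). Without D4xA4, the cross with the largest rise, neither brn1-2-4 nor Lefty passed this test (0 genes called).

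**Figure D5:**
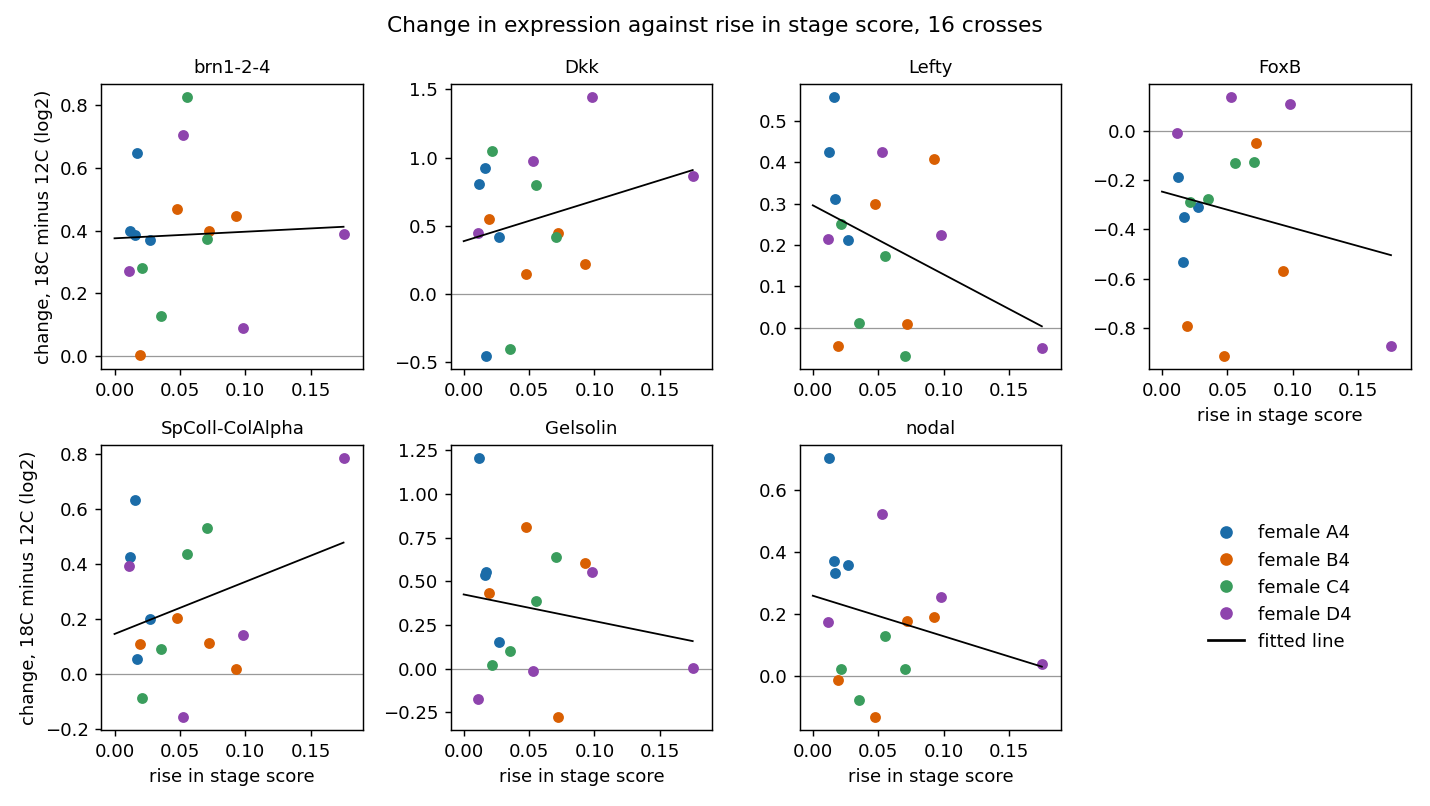
Change at 18C relative to 12C (log2) of each called gene against the rise in stage score (scale not stated) in the 16 crosses, with the fitted line. D4xA4 stands alone at a rise of 0.175, and the slopes, such as 0.01 per 0.05 units for brn1-2-4, are within or close to their errors.

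The changes were then compared between families. No gene differed between dams or between sires past the threshold (limma moderated F test on the 16 differences, 0% called for each, 5 and 7 genes at an unadjusted p under 0.05, smallest adjusted p = 0.114 and 0.288). Between dams the smallest adjusted p was shared by snail (F = 8.41), nodal (F = 7.01) and Hex (F = 6.97). The mean change of nodal was 0.44 in the 4 crosses of female A4, 0.25 in those of D4, 0.06 in those of B4 and 0.03 in those of C4. Dkk had a mean change of 0.03 in the crosses of male B4 and 0.58, 0.73 and 0.82 in those of males A4, D4 and C4, and its test between sires did not pass (adjusted p = 0.313). For brn1-2-4 the dam means ran from 0.33 to 0.45 and the sire means from 0.26 to 0.51. The 16 crosses share 4 females and 4 males and are not 16 independent families. With the 4 dam means as the units 3 genes were called (brn1-2-4, Dkk and SpColl-ColAlpha), and with the 4 sire means 1 (brn1-2-4).

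Leaving out a parent changed the count of called genes, and brn1-2-4 was called each time. The count was 2 without female A4 (brn1-2-4 and Dkk) and 1 without male A4 (brn1-2-4). It was 10 without female C4 and 9 without male B4, with all 7 genes among them. It was 6 without female B4 or D4, and 4 without male C4 or D4. Without replicate 1 the count was 2 (brn1-2-4 and FoxB). Without replicate 2 it was 6, with brn1-2-4, Dkk, Gelsolin, Lefty and nodal among them.

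The same temperatures were applied in block 3, with other parents on another plate, and a block cannot be told apart from its plate. Temperature nearly followed plate row there too, with 28 of the 18C cultures in rows that held no 12C culture and 24 of the 12C cultures in rows that held no 18C culture. All 7 genes had changes of the same sign in block 3, each smaller. Most of the other genes of the panel also shared their sign between blocks, so this is not particular to the 7. They were chosen for their change in block 4, and genes chosen so tend to change less in another block. In block 4 and block 3, the change was 0.39 ± 0.05 and 0.25 ± 0.07 for brn1-2-4, 0.54 ± 0.12 and 0.21 ± 0.11 for Dkk, and 0.21 ± 0.05 and 0.04 ± 0.03 for Lefty. For FoxB it was -0.32 ± 0.08 in block 4 and -0.05 ± 0.07 in block 3. The difference between blocks passed the threshold for none of the 74 genes (0% called, 5 at an unadjusted p under 0.05, smallest limma adjusted p = 0.252, that of Lefty and of cyclophilin). The rise in stage score averaged 0.0515 in block 4 and 0.00834 in block 3, where 10 of 16 crosses rose (exact sign-flip p = 0.646). The difference of 0.0431 did not pass after adjustment over the 3 stage tests (permutation test with 100000 resamples, two-sided p = 0.0493, adjusted p = 0.0740).

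Cultures of these crosses at 15C place the called genes on a temperature series. The 31 cultures at 15C were sampled at times from 27.65 to 28.58 and lay mainly in plate rows F to H. Temperature thus follows sampling time, and nearly follows plate row, in this series too. From 12C through 15C to 18C, the mean level was -0.23, 0.07 and 0.15 for brn1-2-4, -0.21, 0.07 and 0.13 for Gelsolin, and 0.16, -0.01 and -0.16 for FoxB. Lefty, nodal and SpColl-ColAlpha also had their 15C mean between the others. For Dkk the means were -0.40, 0.27 and 0.14, with 15C the highest. These are descriptions, and the steps between neighbouring temperatures were not tested here.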

How the data were processed

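Per the labels, DASL plates gave 1 array per culture, and the submitters' processing notes name BeadStudio. The authors' deposited normalized table holds log2 values of 336 probes, centred on 0 per probe within a plate (the centring was read from the values); their method is not given in the sources used here. The deposited non-normalized values (7.17 to 14.7) were read as log2 and used for detection and alternatives. Over probes, normalized values had a slope of 0.831 on array-centred non-normalized ones. 1 array column marked as poor was not used.

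The probes of a gene were averaged, then the 2 replicates. limma 3.58.1 (R 4.3.3) was fitted to 32 cross-by-temperature means of all 74 genes with cross as a block (15 residual degrees of freedom), with Benjamini-Hochberg adjustment and a threshold of 0.05. The change at no rise in stage and its slope came from a regression of the 16 differences on the rise. A probe was detected where under 0.05 of its array's negative controls reached it. Replicates are not stated to be separate fertilizations, so the main p-values measure the spread between crosses. Fits with plate row, plate column, replicate number or the stage score of each culture used single cultures. There the replicates count as separate units. The number of arrays limits the precision. The replicate numbers were checked for pairing and did not pair cultures (median correlation 0.0372 over the 16 crosses, 6 above 0.1). Scripts were tested on simulated data. Named genes were those called, the 24 of smallest p, the extremes, deadringer and list examples; cyclophilin was named for its block difference. The comparison, the members and the lists were chosen with earlier results of these data known. Gene names are those of the files (26 matched a RefSeq symbol or synonym in assembly Spur_5.0), and no genome coordinates are used here.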

Additional observations from a re-analysis of the deposited data

Results flagged for a closer look

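The rise in stage score at 18C was larger in block 4 than in block 3 by 0.0431, a difference between blocks at an unadjusted permutation p of 0.0493 over 32 crosses that did not hold after adjustment (0.0740). All 16 crosses rose in block 4 and 10 of 16 in block 3.

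The non-normalized table holds 3 genes that the normalized table leaves out, and all gave signal above the negative controls in block 4. Hmx lay 4.70 log2 units above them, Kakapo 4.02 and RBM8A 5.59, with 98.1%, 99.1% and 100% of probe values detected. After subtracting each array's median, Hmx changed by 0.05 ± 0.05, Kakapo by -0.11 ± 0.06 and RBM8A by -0.02 ± 0.05 (log2, SE, 16 crosses). The exact sign-flip p was 0.313, 0.0899 and 0.632 (0.470, 0.270 and 0.632 adjusted over the 3 genes), with 10, 6 and 6 crosses higher at 18C.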

How the results depend on the processing

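The count of 7 genes stayed within 1.5 times under 18 of 32 alternatives, and the rise in stage score kept its direction and its side of the threshold in all that were run (0.0394 to 0.0626 leaving out a parent or replicate). The count was 4 with the brightest probe and with quantile-normalized non-normalized values, 3 without the cross block, 2 with the rise in stage as a covariate, 3 with dam means and 1 with sire means. From single cultures it was 0 with row as a fixed block, 0 within row C and 16 with row as a random block. It ran from 1 to 10 leaving out 1 replicate or parent. The numbers did not pair cultures: with the replicate number as a block 8 genes were called, including all 7. From detected probes alone 9 of 68 genes were called, with Wnt8, VEGF-3 and Ets1 among them and without Dkk. Of the named genes not called, 14 passed under at least 1 alternative, C-lectin under 6, Mitf under 5 and Wnt8 under 4. Genes called at no rise in stage numbered 1 with the median of probes, 1 with non-normalized values, 1 without replicate 1, 6 without replicate 2 and 0 without D4xA4, a setting chosen after seeing the data. With the array median removed, on either scale, 1 gene (cyclophilin) differed between blocks, and with the median of probes 1 gene (snail) differed between dams. Signs reversed as follows, and the causes were not tested. With the brightest probe, Lefty gave -0.0177, SM32 -0.0263, Endo16 -0.0280 and Chordin -0.0453. With row as a block, B-catenin gave -0.0944, Tel -0.0868, Not 0.0495, gcm -0.182, APOBEC -0.0487, cyclophilin 0.0187, Endo16 -0.122 and C-lectin 0.144. Within row C, these gave -0.111, -0.287, 0.0903, -0.265, -0.0422, 0.0280, -0.0580 and 0.0717, with VEGF-3 at 0.0508 and FoxO at -0.0801. Chordin, at 0.01 as reported, gave -0.0215 with the median of probes, -0.00360 with quantile normalization, -0.00662 with culture stage as a covariate, and -0.0105 (without male B4) to 0.0359 (without female C4) leaving out a parent or replicate. deadringer gave 0.00608 with plate column, 0.00907 with row as a random block, 0.000749 with the rise as a covariate, and -0.0324 without replicate 1 to 0.0254 without replicate 2. Ets1 gave -0.0280 with non-normalized values, SM32 gave -0.0420 without replicate 1 and 0.363 without replicate 2, and gsc -0.00670 and 0.194. Signal limits Dkk and the 5 genes within 1 log2 unit of the negative controls.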
